A study of Mus musculus with 24 samples.

Results

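The Wnt genes examined here were every gene whose annotated symbol names a Wnt ligand (Wnt), a Frizzled receptor (Fzd), the co-receptors Lrp5 and Lrp6, a secreted modulator (Sfrp, Dkk, Wif1, Rspo, Kremen) or the intracellular transducers Dvl1 to Dvl3, Axin1 and Axin2. Of 53 reference genes that match these names, 52 had a probe set with a single symbol, out of 18194 genes on the array. They comprised 19 ligands, 12 receptors and co-receptors, 10 inhibitors, 4 R-spondins, 5 intracellular genes and 2 that only share a name. Of the last 2, Dkkl1 is a Dickkopf-like gene and Fzd10os an opposite-strand transcript of the Fzd10 locus. Wnt proteins are secreted lipid-modified ligands that bind Frizzled receptors with Lrp5 or Lrp6 and, through Dishevelled, release β-catenin from the Axin complex. Sfrp proteins and Wif1 bind the ligands, several Dkk proteins bind Lrp5 and Lrp6, and R-spondins keep the receptors at the cell surface. In the developing forebrain the pathway takes part in patterning, axon growth and synapse formation.

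The arrays compared the ventrobasal complex (VB, whose VPM nucleus relays whisker input) with the dorsal lateral geniculate nucleus (dLGN, which relays retinal input), in wild-type C57BL/6 mouse pups at P0 and P4. Eyes of embBE mice were cauterized bilaterally before birth, and control pups had not been enucleated. Each group had 3 of the 24 arrays, except that at P0 the embBE dLGN had 4 and the control dLGN 2. Each sample was tissue pooled from pups of a single litter and condition, amplified in 2 rounds, and the p-values therefore measure the spread between arrays, part of which may be technical. In the paper only part of each litter was enucleated. The labels do not say which arrays share a litter, and the main fits of embBE against control treated the arrays as unpaired. Bulk tissue does not tell fewer cells that express a gene from less RNA in each cell. Values below are log2 signals after RMA normalization, and a difference of 1 is a doubling. A gene was called at a fold of at least 1.5 with an unadjusted p under 0.05, the threshold of the methods, and was counted separately at a Benjamini-Hochberg adjusted p under 0.05 over all 18194 genes, both from limma.

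The relay neuron genes Slc17a6 and Tcf7l2 were bright on every array (11.09 to 13.32 and 11.77 to 12.80). Rorb separated the nuclei, with 8.20 to 9.46 in the VB and 6.01 to 7.79 in the dLGN, and Lhx2 did so in the other direction at each age (3.88 to 5.09 against 5.55 to 6.99 at P0, 3.26 to 4.11 against 5.02 to 5.44 at P4). The log2 excess of the 3′ over the 5′ actin probe set is a measure of RNA integrity and amplification. Its median was higher in the dLGN (3.76, range 2.21 to 4.27) than in the VB (2.27, range 1.95 to 4.29). The part of this excess in the differences between nuclei was not tested. Each count below was also run with a separate measure, the signal spread of each array, as a covariate. It was run as well without the 6 arrays of narrowest spread, 2 from the VB and 4 from the dLGN.

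The family varied over a range close to that of all genes. The range of the 8 group means had a median of 0.43 over the 52 genes and 0.46 over all genes, and was under 0.5 for 30 of the 52 (57% of all genes). It reached 1 for 6 of the 52, namely Dkk4 (2.92), Wif1 (2.49), Fzd8 (1.81), Rspo2 (1.52), Dkkl1 (1.13) and Wnt9b (1.04), while 11% of all genes varied that much. The spread within groups was alike, with a median SD of 0.20 over the 52 genes and over all genes. The mean signal of 24 of the 52 lay in the lowest tertile of all genes, where a change is compressed by background. Fzd5, Kremen1, Wnt3 and Fzd10 had the narrowest ranges (0.13, 0.16, 0.24 and 0.24).

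**Figure D1:**
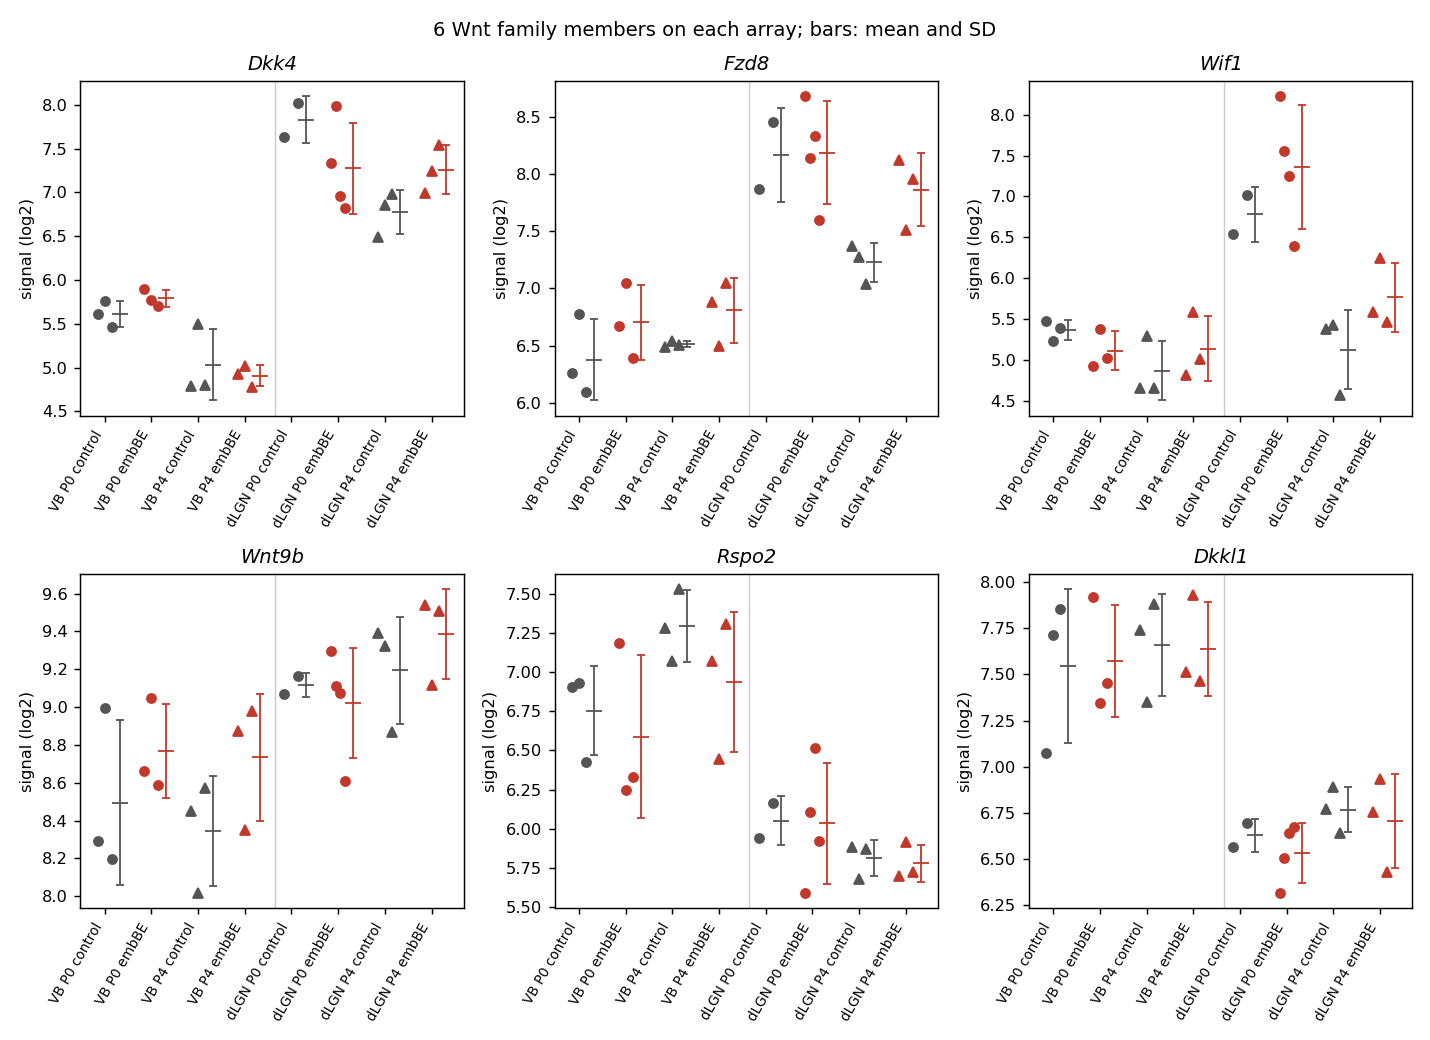
Signal (log2, vertical axes) of the 6 Wnt family genes whose group means range over at least 1, on every array of the 8 groups (horizontal axes); grey is control, red embBE, circles P0 and triangles P4, and each bar is a group mean with its SD. Dkk4 lies between 4.78 and 5.90 on all VB arrays and between 6.50 and 8.02 on all dLGN arrays, and Wif1 is high in the dLGN at P0 only.

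The first question was which Wnt genes distinguish the 2 nuclei. The secreted or surface components Dkk4, Fzd8 and Wif1 were higher in the dLGN, whereas the R-spondin gene Rspo2 and Dkkl1 were higher in the VB. At P0, 6 of the 52 genes were called between control nuclei (3.57% of all genes) and 5 between embBE nuclei (11.7%). At P4, 5 were called between control nuclei (4.7%) and 8 between embBE nuclei (11.5%). By adjusted p the counts were 3 (1.56% of all genes) and 4 (7.46%) at P0, and 4 (3.21%) and 7 (8.44%) at P4, for control and embBE. The median difference (VB minus dLGN) of the 52 genes was 0.03 and −0.14 at P0 and −0.08 and −0.19 at P4, beside 0.03, −0.06, −0.03 and −0.09 over all genes.

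Dkk4, an inhibitor that binds the co-receptors Lrp5 and Lrp6 and is itself induced by Wnt signalling in several tissues, gave the largest difference of the family between control nuclei at both ages and between embBE nuclei at P4. In the VB at P0 its signals were 5.61, 5.76 and 5.47 on the control arrays and 5.90, 5.77 and 5.70 on the embBE arrays. In the dLGN at P0 they were 7.64 and 8.02 (control) and 7.33, 7.99, 6.96 and 6.82 (embBE). At P4 they were 4.79, 5.50 and 4.80 (VB control), 4.93, 5.02 and 4.78 (VB embBE), 6.50, 6.85 and 6.99 (dLGN control) and 6.99, 7.24 and 7.55 (dLGN embBE). Every dLGN array thus lay above every VB array. Dkk4 was lower in the VB by 4.64-fold between control nuclei at P0 (log2 difference −2.21, SE 0.27, limma adjusted p = 1e-04) and by 2.80-fold between embBE nuclei (−1.49, SE 0.23, adjusted p = 0.000399). At P4 the folds were 3.35 (−1.75, SE 0.24, adjusted p = 0.000144) and 5.11 (−2.35, SE 0.24, adjusted p = 3.5e-06).

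Fzd8, a Frizzled receptor, was also higher in the dLGN in all 4 comparisons. At P0 it gave 6.26, 6.77 and 6.1 (VB control) and 6.67, 7.05 and 6.39 (VB embBE), against 7.87 and 8.46 (dLGN control) and 8.68, 8.14, 8.33 and 7.60 (dLGN embBE). The groups did not overlap, and the differences were −1.79 (SE 0.28, limma adjusted p = 0.000978) and −1.49 (SE 0.23, adjusted p = 0.000476). At P4 the VB gave 6.49, 6.54 and 6.51 (control) and 6.88, 6.50 and 7.05 (embBE) against 7.37, 7.28 and 7.04 (control) and 8.13, 7.51 and 7.96 (embBE) in the dLGN. Within each condition the nuclei did not overlap, though the highest VB embBE array (7.05) lay above the lowest dLGN control array (7.04), and the differences were −0.72 between control nuclei (SE 0.25, adjusted p = 0.153) and −1.06 between embBE nuclei (SE 0.25, adjusted p = 0.0131). The other Fzd8 probe set gave differences in the same direction, −1.0 and −0.94 at P0 and −0.50 and −0.56 at P4. No other receptor was called between nuclei.

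Wif1, which binds Wnt ligands outside the cell, was high in the dLGN at birth. At P0 its signals were 5.48, 5.23 and 5.39 (VB control) and 4.93, 5.38 and 5.02 (VB embBE), but 6.55 and 7.02 (dLGN control) and 8.23, 7.55, 7.25 and 6.40 (dLGN embBE). Every dLGN array was above every VB array, by 1.41 between control means (SE 0.39, limma adjusted p = 0.0773) and 2.25 between embBE means (SE 0.32, adjusted p = 0.000213). At P4 Wif1 gave 4.66, 5.29 and 4.66 (VB control), 4.81, 5.58 and 5.02 (VB embBE), 5.38, 5.42 and 4.57 (dLGN control) and 5.59, 6.24 and 5.46 (dLGN embBE). The control nuclei overlapped at this age (−0.25, 95% interval −0.98 to 0.47), and the embBE nuclei overlapped at a single pair (−0.63, interval −1.35 to 0.09), neither of them called. Of 9 astrocyte and radial glia genes, Aqp4 was called higher in the dLGN at P0 in both conditions (9.32 to 9.95 against 6.41 to 8.35), whereas Aldh1l1, Fabp7, Slc1a3 and Vim were called higher in the VB between embBE nuclei. The summed linear signal of the 9 genes at P0 was 15580 to 21540 in the VB and 11140 to 22080 in the dLGN, and their part in the Wif1 difference was not tested.

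Among the ligands, Wnt9b was called higher in the dLGN in 3 of the 4 comparisons. Its P4 signals were 8.45, 8.02 and 8.57 (VB control) against 9.39, 9.32 and 8.87 (dLGN control), and 8.88, 8.35 and 8.98 (VB embBE) against 9.54, 9.12 and 9.51 (dLGN embBE). Neither pair overlapped, with differences of −0.85 (SE 0.23, limma adjusted p = 0.0465) and −0.65 (SE 0.23, adjusted p = 0.0733), the latter not called without dLGN embBE array 24_4 (−0.57) or VB embBE array 36_2 (−0.46). At P0 the control nuclei differed by −0.62 (SE 0.26, adjusted p = 0.406), without overlap, and this call was lost without VB 35_1 or 39_5 or either dLGN control array (−0.66 to −0.47). Between embBE nuclei at P0 the arrays overlapped (8.66, 9.05 and 8.59 in the VB, 9.29, 9.11, 9.07 and 8.61 in the dLGN), and the difference of −0.26 (95% interval −0.71 to 0.19) was not called. The other Wnt9b probe set, a dim one (mean 4.88), gave −0.02 to −0.48. Called only between embBE nuclei at P4 were the ligands Wnt5b (5.54, 5.69 and 5.47 in the VB, 6.29, 6.24 and 6.33 in the dLGN; −0.72, SE 0.18, adjusted p = 0.0201) and Wnt11 (5.53, 5.40 and 5.39 against 6.02, 6.04 and 6.09; −0.61, SE 0.13, adjusted p = 0.00721), and the ligand-binding inhibitor Sfrp1. Sfrp1 gave 6.32, 6.15 and 6.32 in the VB and 6.91, 6.88 and 7.01 in the dLGN (−0.67, SE 0.19, adjusted p = 0.037), but its other probe sets spanned −0.68 to 0.03. The groups did not overlap for these 3 genes, yet all 3 calls were lost with the spread of each array as a covariate and with cyclic loess, where 5 genes were called in place of 8, and that of Wnt11 also without VB array 40_3 (−0.58). The mean signals of Wnt5b (6.043) and Wnt11 (5.785) lay in the lowest tertile of all genes, and both drop out when dim genes are left out.

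Rspo2 and Dkkl1 ran the other way. Rspo2, which encodes an R-spondin that potentiates Wnt signalling through Lgr receptors, gave 7.28, 7.08 and 7.53 (VB control) and 7.07, 6.44 and 7.31 (VB embBE) at P4, against 5.88, 5.68 and 5.87 (dLGN control) and 5.70, 5.92 and 5.72 (dLGN embBE). No arrays overlapped, and the VB was 2.80-fold higher between control nuclei (1.49, SE 0.25, limma adjusted p = 0.00111) and 2.24-fold higher between embBE nuclei (1.16, SE 0.25, adjusted p = 0.00747). At P0 the signals were 6.91, 6.93 and 6.43 (VB control) against 5.94 and 6.16 (dLGN control), a difference of 0.71 (SE 0.28, adjusted p = 0.359) that was not called without VB array 35_1 or 35_2 or dLGN array 35_1 (0.60 to 0.63), and between embBE nuclei it was 0.56 (SE 0.23, adjusted p = 0.126), just below the fold of 1.5. The other Rspo2 probe set showed no such difference at P4 (−0.04 and −0.18), so the result rests on a single probe set. Dkkl1 gave 7.07 to 7.93 on the 12 VB arrays and 6.31 to 6.93 on the 12 dLGN arrays, without overlap. Its differences were 0.92 (SE 0.23, adjusted p = 0.04) and 1.04 (SE 0.19, adjusted p = 0.00221) at P0 and 0.89 (SE 0.20, adjusted p = 0.0139) and 0.93 (SE 0.20, adjusted p = 0.0077) at P4. Rspo1 was called between embBE nuclei at P0 (−0.77, SE 0.35, adjusted p = 0.15), a difference that fell to −0.43 without the dLGN embBE array 35_3, whose signal of 7.48 stood above the others (5.88 to 6.34), and the call was also lost without VB 35_3 (−0.69) or 39_4 (−0.76). It is outside the rule for named genes and was chosen after its values were seen.

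**Figure D2:**
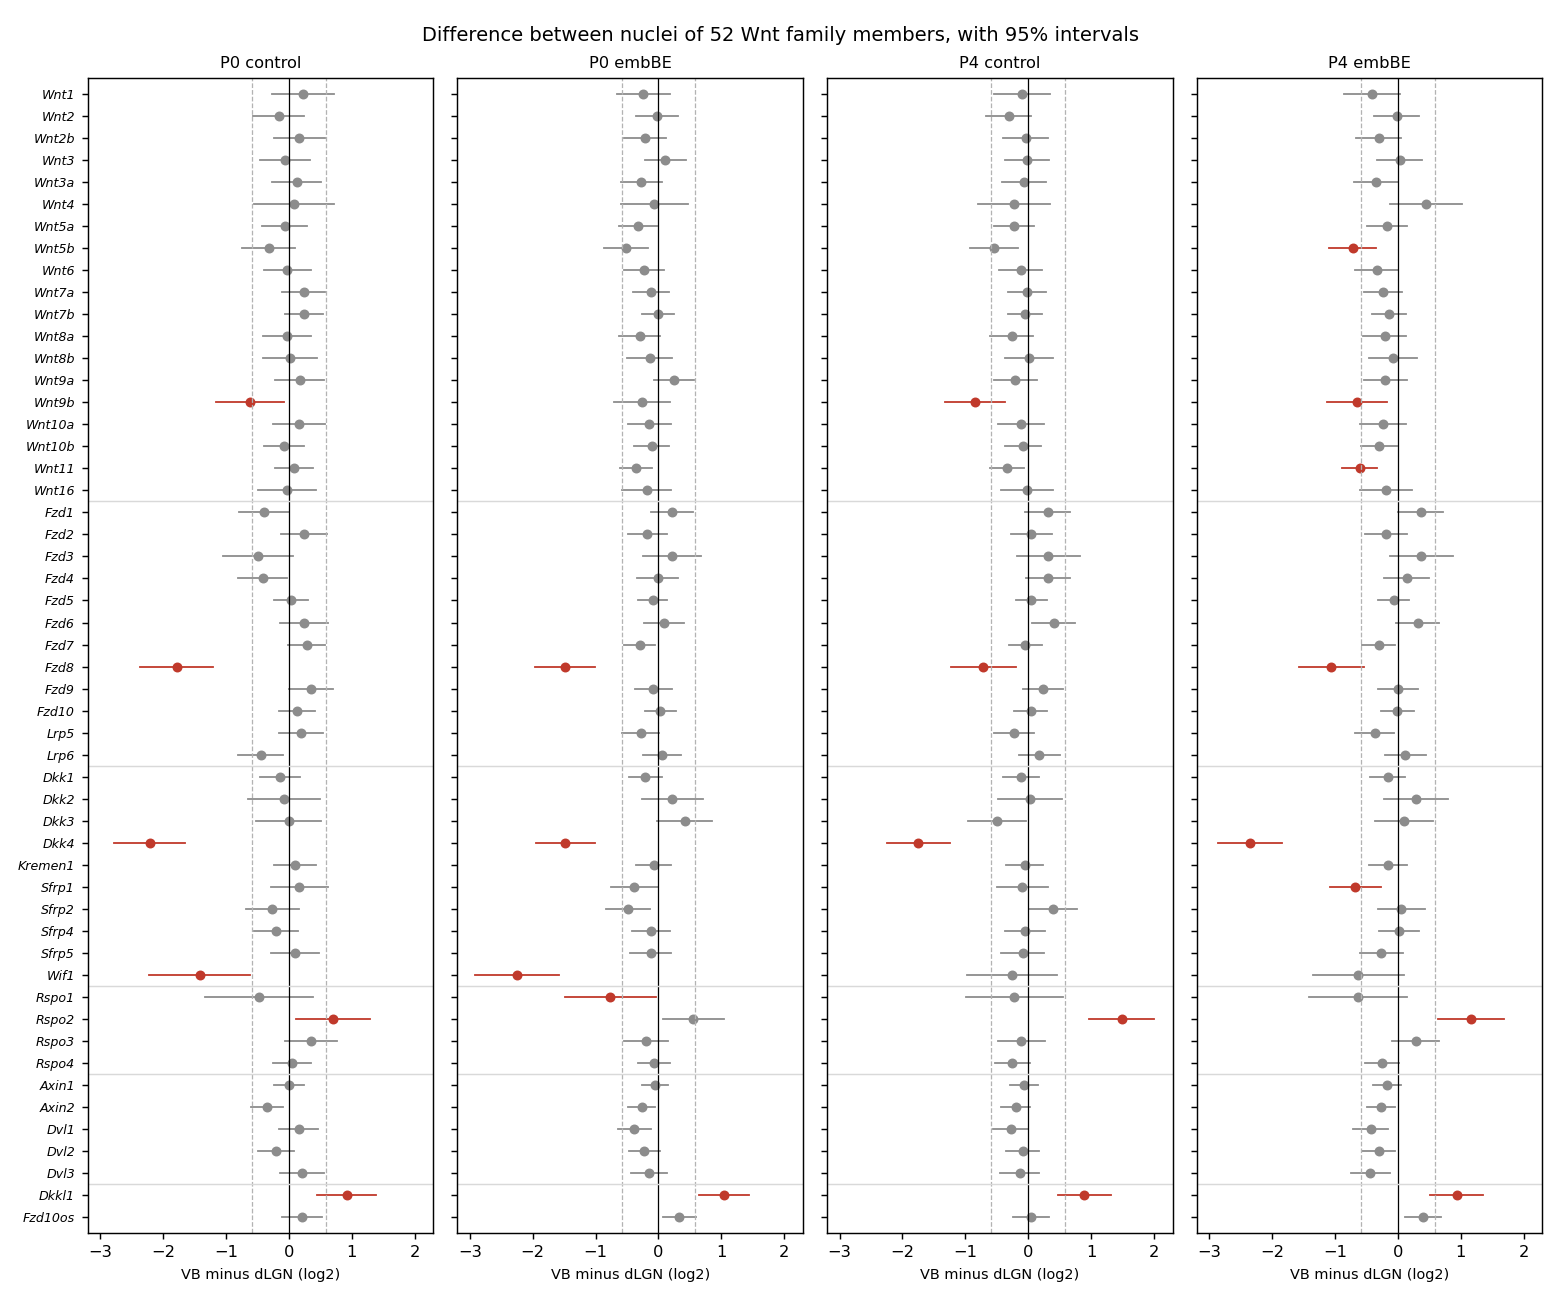
Difference between nuclei (VB minus dLGN, log2, horizontal axes) of the 52 Wnt family genes, grouped by role from ligands (top) to intracellular and name-sharing genes (bottom), in the 4 combinations of age and condition. Points are limma differences with 95% intervals, red where called, and dashed lines mark a fold of 1.5; Dkk4, Fzd8 and Dkkl1 are red in all 4 panels and Rspo2 in 3.

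Without the 6 arrays of narrowest spread, Dkk4, Fzd8 and Dkkl1 were still called in all 4 comparisons, among 6, 4, 6 and 8 genes. The control and embBE comparisons of an age use separate arrays, and across the 52 genes their differences correlated with Pearson r = 0.77 at P0 and 0.87 at P4 (0.41 and 0.83 over all genes), given as a description of genes that share the same normalization. The sign was shared by 24 of the 52 genes at P0 (51.2% of all genes) and by 42 at P4 (82.3%). Markers of other cells also differed between the nuclei. Of 13 GABAergic genes 1 or 2 were called lower in the VB in each comparison, among Gad1, Npy and Lhx5, and their summed linear signal was 537 to 915 in the VB and 661 to 1324 in the dLGN, apart from control arrays 39_5 of P0, which stood high in both nuclei (2440 and 2051, with Gad1 at 9.97 and 9.51). Without either of these arrays 5 of the 52 genes were called between control nuclei at P0 in place of 6, Wnt9b being lost. Of 7 oligodendrocyte lineage genes 1 to 3 were called higher in the VB, with summed signals of 6453 to 13700 there and 3413 to 11430 in the dLGN. Of 8 habenular genes 1 was called lower in the VB in each comparison, with sums of 834 to 1356 against 1097 to 1958. Between embBE nuclei at P4, the only comparison in which Wnt5b, Wnt11 and Sfrp1 were called, 3 of 8 meningeal fibroblast genes were called lower in the VB (Col1a2, Col3a1 and Dcn; −0.95, −1.34 and −1.03), with sums of 586 to 730 in the VB and 676 to 1710 in the dLGN. Between embBE nuclei at P0, 2 of 5 cycling genes were called higher in the VB (Cdk1 and Ube2c), with sums of 844 to 1092 against 643 to 744. The part of these cells in the Wnt differences was not tested.

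The promoter of Wif1 is shown because this gene gave the largest difference between embBE nuclei at P0. It is the 250 bases before the annotated gene start (RefSeq, GRCm38.p6, chr10:121033754-121034003, plus strand), read 5′ to 3′.
Wif1: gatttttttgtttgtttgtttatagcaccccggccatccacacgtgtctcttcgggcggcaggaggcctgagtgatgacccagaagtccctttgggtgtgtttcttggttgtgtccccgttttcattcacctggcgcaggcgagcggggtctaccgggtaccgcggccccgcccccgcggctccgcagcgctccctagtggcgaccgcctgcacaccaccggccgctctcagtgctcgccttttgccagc
It was searched on both strands for the TCF/LEF core CTTTGA, the nuclear receptor half-site AGGTCA and the homeobox motif TAATTA, and no match was found, so no base is in capitals. Among 36 promoters of 33 Wnt family genes in the table, 4 held CTTTGA, 2 held AGGTCA and 1 held TAATTA. Among all 32851 promoters of this length the shares were 13.8%, 14.0% and 4.84%. A match describes letters and not a bound site.

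The next question was how the family changed from P0 to P4. In the control dLGN the secreted inhibitors Dkk4 and Wif1 and the receptor Fzd8 were lower at P4 and the ligand Wnt9a was higher. In the VB, 0 of the 52 genes were called in control pups (5.1% of all genes; 5 of the 52 had an unadjusted p under 0.05 in limma and the methods' t-test also called 0) and 2 in embBE pups (4.54%). In the dLGN, 4 were called in control pups (3.69%) and 2 in embBE pups (3.48%). The adjusted p passed for 1 gene in control VB (3.78% of all genes) and 1 in embBE VB (3.42%), and for 0 genes in control (0.561%) and embBE dLGN (1.02%), where 7 and 4 of the 52 had an unadjusted p under 0.05 and the methods' t-test passed 0 after adjustment. The median differences of the 52 genes were −0.02 and 0.00 in the VB and 0.07 and −0.01 in the dLGN, beside −0.03, −0.04, 0.04 and 0.01 over all genes. The dLGN genes named in this comparison were chosen after their values were seen, since none passed the adjusted threshold.

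Wif1 fell in the dLGN by 1.66 in control pups (SE 0.44, limma adjusted p = 0.162) and by 1.59 in embBE pups (SE 0.37, adjusted p = 0.0664). The signals already given did not overlap between ages in either condition, with the lowest P0 array at 6.40 and the highest P4 array at 6.24. Dkk4 fell in the embBE VB by 0.88 (SE 0.17, adjusted p = 0.0152), from 5.70 to 5.90 at P0 to 4.78 to 5.02 at P4. On every VB array Dkk4 lay below 6.20, the upper limit of the lowest tertile of gene means, where background compresses a change. In the control VB its difference was −0.58 (SE 0.17, adjusted p = 0.0831), just short of a fold of 1.5 and reduced by array 36_3 at 5.50. In the control dLGN Dkk4 fell by 1.05 (SE 0.30, adjusted p = 0.21), but in the embBE dLGN the difference was −0.02 (95% interval −0.57 to 0.54). Fzd8 fell in the control dLGN by 0.93 (SE 0.29, adjusted p = 0.252), and its other probe set gave −0.52 there, while in the embBE dLGN the ages overlapped (−0.32, 95% interval −0.85 to 0.20) and Fzd8 was not called.

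Wnt9a, a ligand, rose in the dLGN of both conditions. Its signals were 8.22 and 8.26 in control and 8.28, 8.45, 7.80 and 8.48 in embBE pups at P0, and 8.77, 8.98 and 8.80 in control and 8.77, 8.82 and 9.12 in embBE pups at P4. The ages did not overlap in either condition, and the increases were 0.61 (SE 0.20, limma adjusted p = 0.27) and 0.65 (SE 0.16, adjusted p = 0.0928). The other Wnt9a probe set, with a mean of 3.56, did not follow (−0.12 and −0.11). Dvl1, the intracellular Dishevelled gene, passed the adjusted threshold in the control VB without reaching a fold of 1.5. It gave 13.00, 12.48 and 12.76 at P0 and 12.12, 12.32 and 12.18 at P4 (−0.54, SE 0.13, adjusted p = 0.0387), without overlap, and its other probe set gave −0.12. The adjusted threshold was missed without P0 array 35_1 or 39_5 or P4 array 24_2 or 40_1 (−0.53 to −0.41). Of these calls, that of Dkk4 in the control dLGN was lost without P0 array 39_5 (−0.86) and that of Fzd8 without the same array (−0.64). In the control VB 5 genes were called without array 36_3 of P4, namely Dkk4, Dvl1, Fzd3, Rspo2 and Wif1, where 0 were called with it, and 1 was called without P0 array 35_2 (Dvl1) or 39_5 (Dkk4). The Wnt9a call was lost in the control dLGN without P4 array 36_3 (0.55), and in the embBE dLGN without P0 array 39_4 (0.50) or P4 array 40_3 (0.54).

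Glial markers also changed with age. Of the 9 astrocyte and radial glia genes, Aqp4 rose in every case (by 3.72 and 3.91 in the VB and by 1.20 and 0.86 in the dLGN, control and embBE), Slc1a2 rose and Vim fell in the VB, and Aldh1l1, Fabp7 and Slc1a3 rose in the embBE dLGN. Their sums were 15580 to 21540 at P0 and 21380 to 27010 at P4 in the VB, and 11140 to 22080 and 20120 to 26340 in the dLGN. Of 7 oligodendrocyte lineage genes Olig2 rose in the control VB, Olig1 in the embBE VB and Olig1 and Pdgfra in the embBE dLGN, with sums of 6453 to 10100 and 8684 to 13700 in the VB and 3413 to 6621 and 5970 to 11430 in the dLGN. Their part in the changes of the Wnt genes was not tested.

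**Figure D3:**
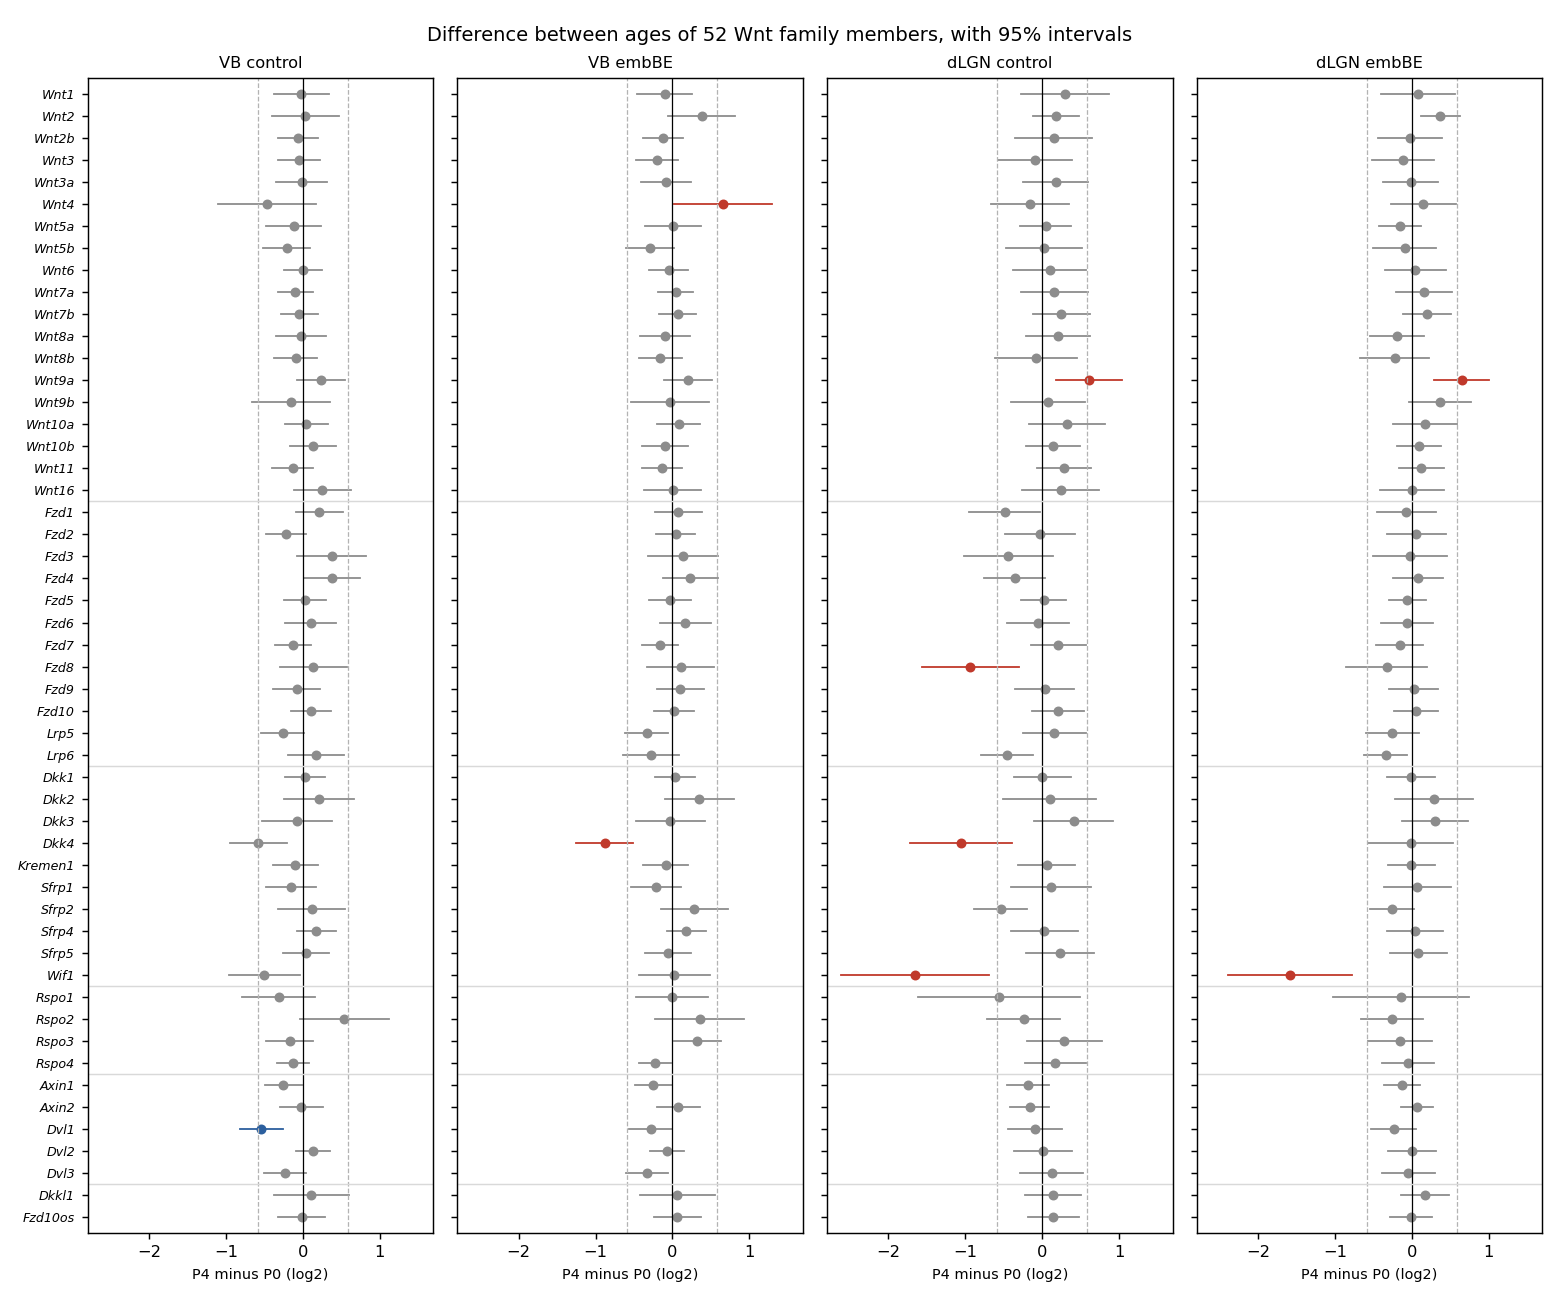
Difference between ages (P4 minus P0, log2, horizontal axes) of the 52 Wnt family genes in each nucleus and condition, as limma differences with 95% intervals; red marks called genes, blue a gene that passed the adjusted threshold only, and dashed lines a fold of 1.5. Wif1 lies at −1.66 and −1.59 in the 2 dLGN panels, and most other genes lie within the dashed lines.

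The main comparison of the study asked whether the loss of the eyes alters gene expression in the spared and the deprived nucleus. In the VB 0 of the 52 genes were called at P0 (0.726% of all genes) and 0 at P4 (0.159%). In the dLGN 0 were called at P0 (0.445%) and 1 at P4 (0.198%), the receptor gene Fzd8. In limma 0% of all genes passed the adjusted threshold in any of these 4 comparisons, by the methods' t-test likewise 0. The unadjusted p was under 0.05 for 4, 1, 3 and 3 of the 52 genes and for 1219, 724, 433 and 236 of all genes. The median embBE minus control difference of the 52 genes was −0.07 in the VB at both ages, and 0.10 and 0.04 in the dLGN, beside −0.03, −0.02, 0.03 and 0.01 over all genes. Individual differences lay between −0.58 and 0.44 (VB, P0), −0.36 and 0.55 (VB, P4), −0.55 and 0.57 (dLGN, P0) and −0.41 and 0.64 (dLGN, P4). The 95% interval of a gene extended by a median of 0.30 to either side of its difference in the VB and by 0.41 and 0.38 in the dLGN, so changes smaller than this could not be resolved. Leaving out 1 array gave 1 call in the VB at P0 (Wnt4 without embBE 35_3, Fzd3 without control 35_2), 1 or 2 in the VB at P4 (Wnt4 without embBE 24_4, Wnt2 and Wnt4 without embBE 40_3) and 1 in the dLGN at P0 (Dkk4 without embBE 39_3, Fzd1 without embBE 39_4, Wif1 without embBE 35_3, Wnt4 without control 39_5).

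Fzd8 in the dLGN at P4 gave 7.37, 7.28 and 7.04 on the control arrays and 8.13, 7.51 and 7.96 on the embBE arrays. The groups did not overlap, and the embBE mean was 1.55-fold higher (0.64, SE 0.26, limma adjusted p = 1). The other Fzd8 probe set gave 7.23, 7.51 and 7.11 in control and 7.28, 7.42 and 7.27 in embBE pups, with full overlap and a difference of 0.04, and the mean of both probe sets was not called (0.34). The call was also lost without embBE array 24_4 (0.51) or 40_3 (0.59) or control array 36_3 (0.66) or 40_1 (0.54). Col1a2, Col3a1 and Dcn were called higher in embBE pups among the 8 meningeal fibroblast genes, whose summed signal was 532 to 645 in control and 676 to 1710 in embBE arrays. The part of these cells in the Fzd8 difference was not tested.

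**Figure D4:**
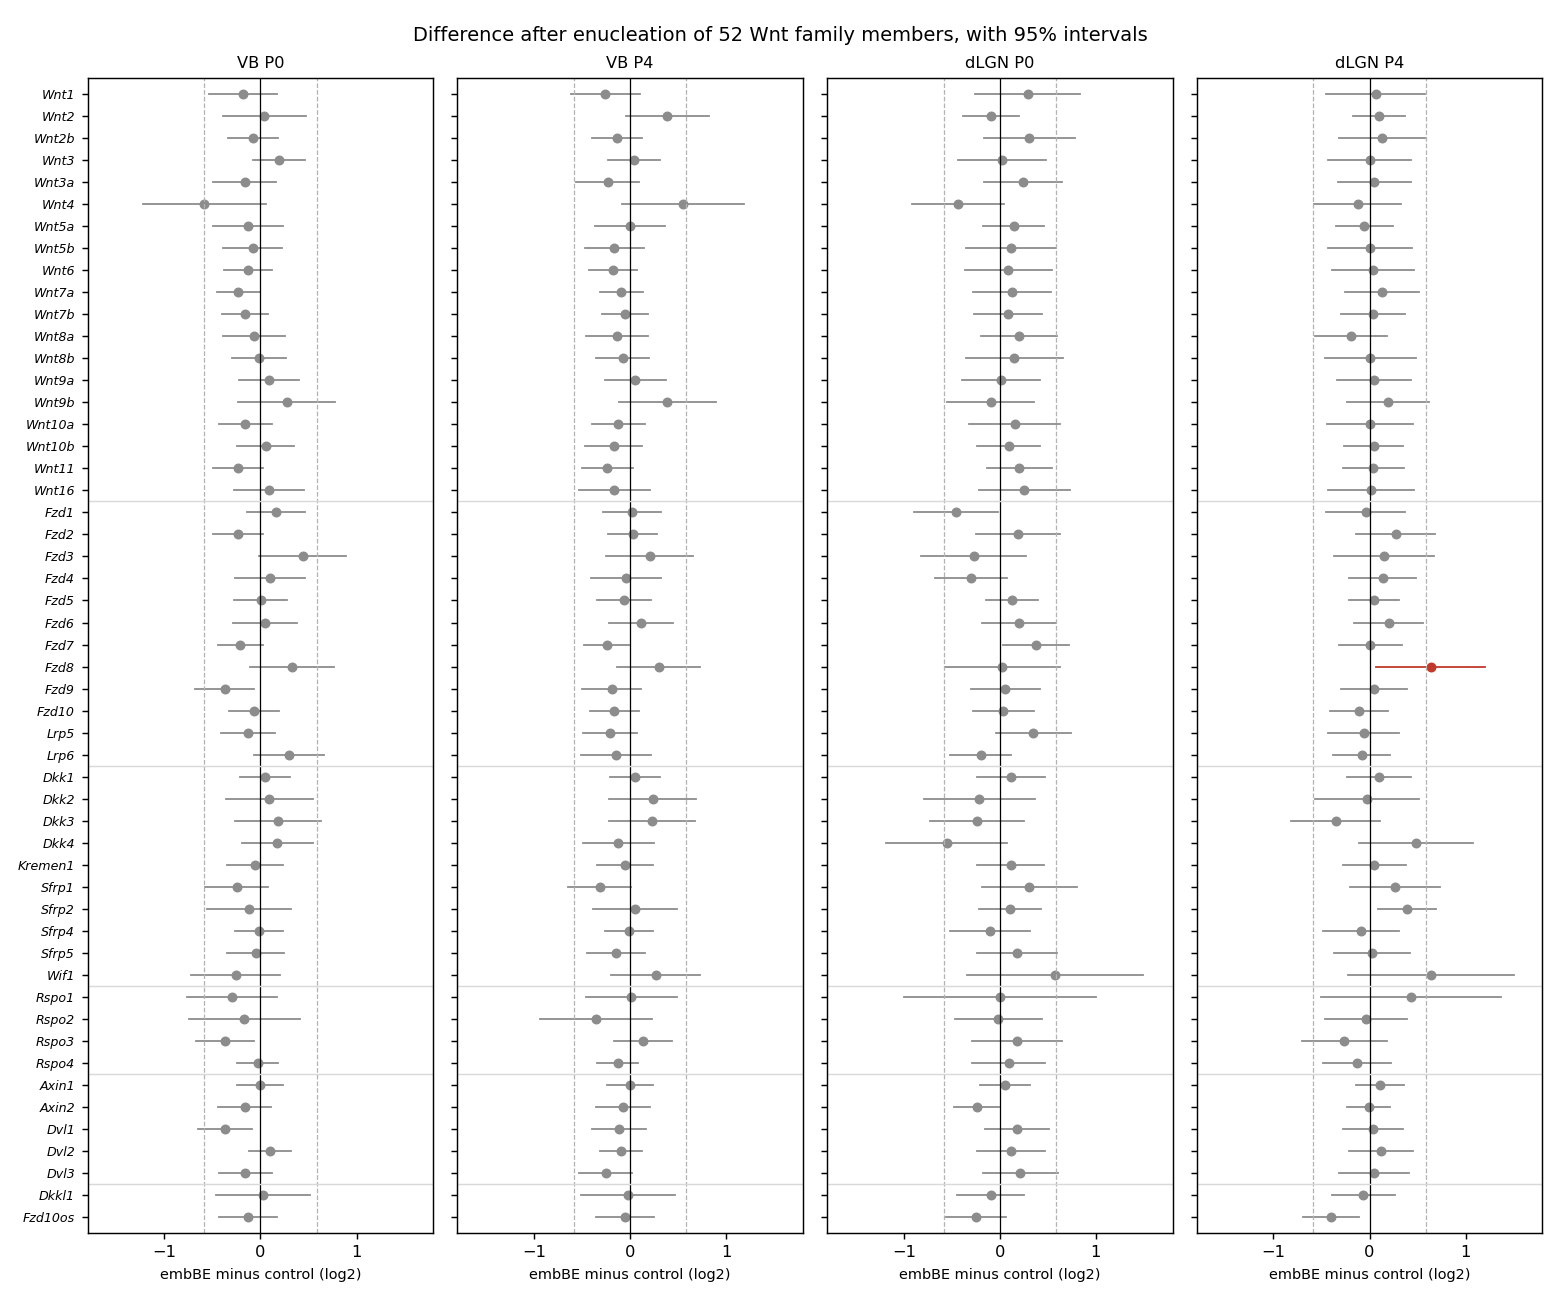
Difference after enucleation (embBE minus control, log2, horizontal axes) of the 52 Wnt family genes in each nucleus and age, as limma differences with 95% intervals; dashed lines mark a fold of 1.5. The only red point is Fzd8 in the dLGN at P4 (0.64).

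Wnt4, a ligand, gave the largest differences of any of the 52 genes in the VB, in opposite directions at the 2 ages, and was not called at either. At P0 its signals were 8.92, 8.98 and 9.21 in control and 8.74, 8.53 and 8.09 in embBE pups. The groups did not overlap. The difference of −0.58 (95% interval −1.22 to 0.05) missed the fold of 1.5, and its unadjusted p in limma was not under 0.05 either. At P4 they were 8.84, 8.50 and 8.36 in control and 8.67, 9.97 and 8.70 in embBE pups, which overlapped (0.55, interval −0.09 to 1.18) and in which array 36_2 stood high. The change of the embBE effect from P0 to P4 was called for Wnt4 in the VB (1.13, SE 0.42, limma adjusted p = 1). It was 0.70 without array 36_2 and the call held whichever array was dropped. The other Wnt4 probe set gave −0.51 at P0 and 0.44 at P4, a change of 0.96, which was not called. From P0 to P4, Wnt4 rose in the embBE VB by 0.66 (SE 0.29, adjusted p = 0.273) and differed by −0.47 in the control VB, and the first of these calls was lost without embBE array 36_2 (0.23), 39_3 (0.70) or 39_4 (0.48).

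**Figure D5:**
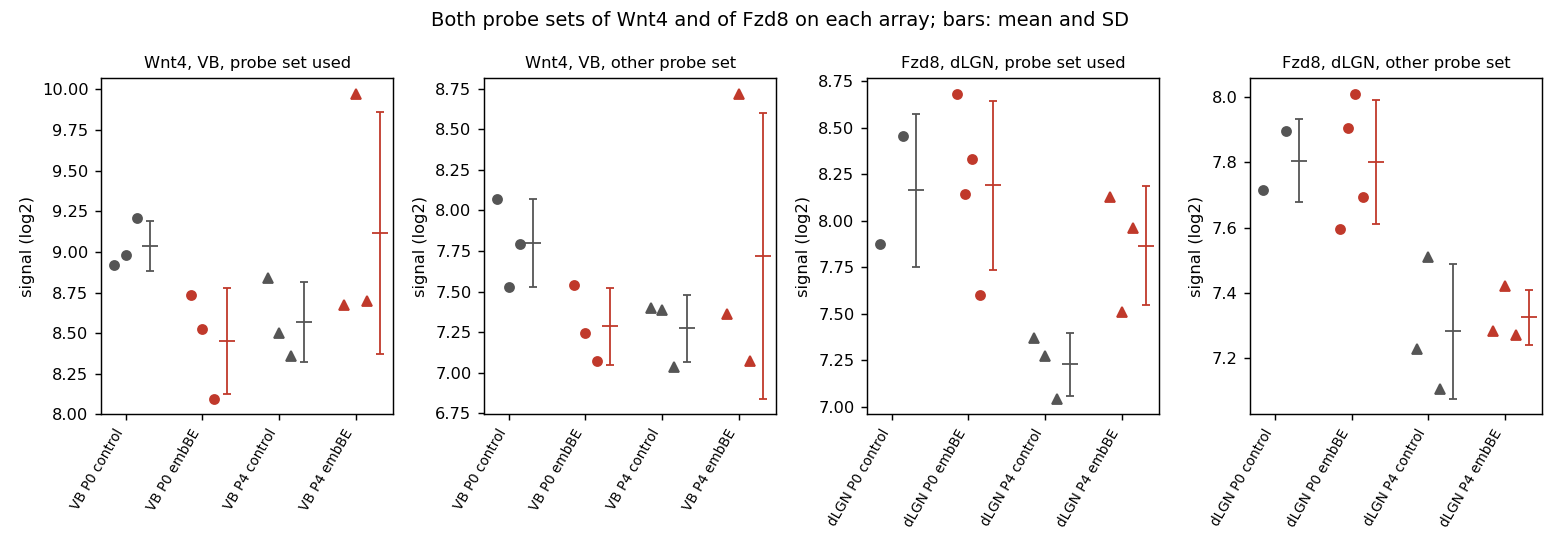
Signal (log2, vertical axes) of both probe sets of Wnt4 in the VB and of Fzd8 in the dLGN on every array; grey is control, red embBE, circles P0 and triangles P4, and bars are means with SD. Both Wnt4 probe sets show embBE below control at P0 and a single high embBE array at P4, whereas the higher Fzd8 signal of embBE pups at P4 appears in the probe set used only.

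In the dLGN the change of the embBE effect with age was called for Dkk4. Its embBE minus control difference was −0.55 at P0 (95% interval −1.18 to 0.08) and 0.48 at P4 (−0.11 to 1.08), a change of 1.04 (SE 0.40, limma adjusted p = 1). This call was lost without control arrays 39_5 (0.84) or 24_2 (0.89) or embBE array 40_3 (0.89). These were the only such calls, 1 of 52 genes in the VB (0.346% of all genes) and 1 in the dLGN (0.418%). Between nuclei, the embBE effect differed for 1 gene at P0 (2.54% of all genes), the receptor Fzd1, and for 0 at P4 (0.478%). Fzd1 changed by 0.16 in the VB and −0.46 in the dLGN, a difference of 0.62 (SE 0.25, limma adjusted p = 0.551), and its other probe set gave −0.20. The Fzd1 call was lost without dLGN embBE array 39_2 (0.56) or 39_3 (0.50), dLGN control array 35_1 (0.49), VB embBE array 39_4 (0.57) or VB control array 35_2 (0.56). The count at P0 reached 6 without dLGN embBE array 39_4 or VB control array 35_2 and 5 without dLGN control array 39_5, and that at P4 reached 2 without dLGN control array 40_1. Fzd1 and Wnt4 are outside the rule for named genes and were chosen after their values were seen. In limma 0% of all genes passed the adjusted threshold in these 4 comparisons, as by the methods' t-test, and 2, 1, 7 and 1 of the 52 had an unadjusted p under 0.05.

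More of the pathway was examined through 4 lists. They held genes of Wnt secretion and other receptors (24 measured), planar polarity (12), the β-catenin pathway (27) and known Wnt targets (15). The lists overlap, since the targets include Axin2 and Dkk1 of the family and Lef1 of the β-catenin list. The targets also share Lgr5, Znrf3, Notum, Rnf43 and Apcdd1 with the first list, so calls of Lgr5 and Znrf3 count in both. In all 4 comparisons of embBE with control, 0 genes of any list were called. Of all genes 0.726% and 0.159% were called in the VB and 0.445% and 0.198% in the dLGN (P0 and P4). At such shares lists of this size would hold few calls or none. Between nuclei, the dLGN was higher in every comparison for the glypican Gpc4 (VB minus dLGN −1.59 and −1.86 at P0, −0.94 and −1.18 at P4, control and embBE), the secreted inhibitor Sostdc1 (−0.92, −0.85, −0.99 and −0.87) and the target and feedback inhibitor Nkd1 (−1.44, −1.75, −0.72 and −0.70), with limma adjusted p of at most 0.0185 for each. The R-spondin receptor Lgr5 was higher in the dLGN in 3 of them (−1.56 in P0 control, −1.30 and −0.87 at P4, limma adjusted p = 0.0325, 0.0318 and 0.0889). Its relative Lgr4 was higher in the VB at P4 (0.76 and 0.90, adjusted p = 0.0226 and 0.00498). The tetraspanin Tspan12, a partner of Fzd4, was higher in the VB at P4 (1.18 and 1.43, adjusted p = 0.0379 and 0.00769). The co-repressor Tle4 was called higher in the VB in all 4 comparisons (0.82 to 1.57). Its limma adjusted p was 0.355 in P0 control and at most 0.02 in the others. Between embBE nuclei the targets Myc (1.22 at P0, 1.02 at P4, adjusted p = 0.000655 and 0.00482) and Tnfrsf19 (1.20 and 1.04, adjusted p = 0.044 and 0.0797) were higher in the VB. The largest difference of the first list was that of the secreted protein gene Cthrc1, higher in the VB in 3 comparisons (2.07 in P0 embBE, 1.21 and 1.97 at P4, adjusted p = 0.0131, 0.306 and 0.0247).

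Across P0 control, P0 embBE, P4 control and P4 embBE, where 3.57%, 11.7%, 4.7% and 11.5% of all genes were called between nuclei, the calls among the 24 genes of the first list were 0, 3, 4 and 5 higher and 3, 2, 3 and 3 lower in the VB. Among the 15 targets 0, 3, 1 and 3 were higher and 2, 1, 2 and 2 lower. The median differences were −0.07, −0.08, −0.03 and −0.10 for the first list and −0.14, −0.21, −0.11 and −0.27 for the targets, against 0.03, −0.06, −0.03 and −0.09 over all genes. Of the 27 β-catenin pathway genes 1, 3, 1 and 1 were higher and 1, 1, 2 and 2 lower, and of the 12 planar polarity genes 0, 1, 1 and 1 were higher and 0 lower. Axin2, the member most used as a readout of β-catenin signalling, was not called in any comparison. Its signals spanned 7.79 to 8.35 in the VB and 8.14 to 8.52 in the dLGN. Within each age and condition, however, the nuclei did not overlap and the VB was lower. The highest VB and lowest dLGN signals were 8.35 and 8.44 in P0 control and 8.07 and 8.14 in P0 embBE. At P4 they were 8.21 and 8.28 (control) and 8.14 and 8.26 (embBE). The differences between group means stayed below the fold threshold. Groups of 2 to 4 arrays can separate by chance, and the share of all genes without overlap was not counted. Axin2 is outside the rule for named genes.

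From P0 to P4 the secreted inhibitor and guidance gene Draxin fell in all 4 combinations of nucleus and condition, by 1.0 and 1.03 in the VB and by 0.94 and 0.91 in the dLGN (control and embBE, limma adjusted p of at most 0.0381). Nkd1 fell in the dLGN by 1.25 and 1.35 (adjusted p = 0.0118 and 0.00177). In the VB, Tspan12 rose by 1.78 and 1.37 (adjusted p = 0.00108 and 0.00346) and Ndp, which encodes the Frizzled ligand norrin, by 0.80 and 0.78 (adjusted p = 0.0331 and 0.0366). Of the 24 genes of the first list 3 rose and 2 fell in the control VB, 3 and 1 in the embBE VB, 0 and 1 in the control dLGN, and 1 and 1 in the embBE dLGN, beside 5.1%, 4.54%, 3.69% and 3.48% of all genes called. Of the β-catenin pathway genes 0 rose and 3, 2, 2 and 1 fell, with Dact1, a binder of Dishevelled, among the first 3 of these counts (−0.70, −0.70 and −0.94). Of the targets 1 fell in each condition of the dLGN, Nkd1.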

How the data were processed

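Thalamic tissue from control and embBE pups was hybridized to 24 Affymetrix mouse genome arrays. The authors normalized the signals by RMA and deposited log2 values for 45101 probe sets, which were used as deposited. RMA gives relative signals, compresses changes of dim probe sets and removes shifts common to a whole array. Depth does not apply to arrays, and their number limits the precision. Probe sets were named from the platform annotation (34958 with 1 symbol, 932 with several and 9211 without a listed gene), and each of 18194 genes was represented by its probe set of highest mean over the 24 arrays. Kremen2, the only other reference gene that matches the rule, was not analysed here, nor were Prickle3 and Tcf7 of the pathway lists.

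Groups came from the sample labels. Differences were fitted with limma 3.58.1 (R 4.3.3), over the 12 arrays of a nucleus for embBE against control and P4 against P0, and over 24 arrays for VB against dLGN, with the number pair in the labels, of unstated meaning, as a random block (consensus correlation −0.0196). P-values are 2-sided and adjusted by the Benjamini-Hochberg method over all genes. The methods' t-test, other probe sets or their mean, cyclic loess, median centring, leaving out dim genes, blocks and each array left out were alternatives, and the covariate for array spread and leaving out the 6 narrowest arrays were chosen after seeing the data. Values on every array are given for genes called between embBE and control, and for up to 8 genes per nucleus or age with the largest differences among those with an adjusted p under 0.05. The Wnt genes, gene lists and rules were chosen with earlier results of these data known. The fits were tested on simulated data. Plots were drawn with matplotlib 3.10.9.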

Additional observations from a re-analysis of the deposited data

Results flagged for a closer look

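The change of the embBE effect from P0 to P4 passed the threshold for Wnt4 in the VB (1.13) and for Dkk4 in the dLGN (1.04), and the embBE effect differed between the nuclei at P0 for Fzd1 (0.62), each by a test of the difference itself in limma with an adjusted p of at least 0.551. In the dLGN of embBE pups at P0, the only group of 4 arrays, array 39_4 stood apart from the others for Dvl3 (5.90 against 6.35 to 6.41, a gap of 0.881 of the range) and for Lrp6 (7.98 against 7.84 to 7.86, a gap of 0.859). These were 2 of 52 genes examined in that group, and chance alone gives about 1 in 20.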

How the results depend on the processing

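Dkk4 and Fzd8 were called between the nuclei in all 4 comparisons under every alternative run on their chosen probe set, and Dkkl1 under all but the methods' t-test in P0 control. Counts of called Wnt genes that moved were as follows, and apart from genes removed as dim the cause was not tested. With the methods' t-test, 3 were called between control nuclei at P0 in place of 6, 1 from P0 to P4 in the embBE VB in place of 2, and 0 in place of 1 for the change of the embBE effect with age in each nucleus. With a gene's probe sets averaged, 4 were called between embBE nuclei at P4 in place of 8, 1 from P0 to P4 in the embBE VB and 1 in the embBE dLGN in place of 2, 0 for embBE in the dLGN at P4 and 0 for the embBE effect between nuclei at P0, each in place of 1. With cyclic loess, 1 was called for embBE at P0 in the VB (Wnt4) and 1 in the dLGN (Dkk4), each in place of 0, 5 between embBE nuclei at P4 and 3 for the embBE effect between nuclei at P0. Median centring gave 1 from P0 to P4 in the control VB and 2 for the embBE effect between nuclei at P0. Leaving out dim genes removed Wif1, Rspo1, Wnt5b and Wnt11 from the test, so that their calls could not be made. This left 3 called between embBE nuclei at P0 in place of 5. From P0 to P4 in the embBE dLGN it left 1 in place of 2, without Wif1. The spread covariate gave 1 for embBE at P0 in the VB (Wnt4) and 1 in the dLGN (Dkk4), 1 from P0 to P4 in the embBE VB and 5 between embBE nuclei at P4. Without the 6 narrowest arrays, 2 were called for embBE in the dLGN at P0 (Dkk4, Wif1) and 2 at P4 (Dkk4, Fzd8), 3 from P0 to P4 in the control VB, 3 for the change of the embBE effect with age in the VB, and 3 at P0 and 1 at P4 for the embBE effect between nuclei.

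Deviations of same-numbered arrays from their group means had a median r of −0.0553 over 11 pairs of nuclei (−0.552 to 0.718). Over 14 pairs of embBE and control it was 0.0271 (−0.499 to 0.758). For pairs with different numbers the medians were 0.0335 (−0.772 to 0.766) and −0.0128 (−0.728 to 0.58). Deviations within such small groups offset each other, so these medians cannot show whether same-numbered arrays are paired. A fixed replicate block gave 1 call for embBE in the dLGN at P0 (Dkk4) and 2 at P4 (Fzd8, Wif1), a random block 1 from P0 to P4 in the control VB, and no block 3 for the embBE effect between nuclei at P0.

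Leaving out each array in turn gave, for embBE against control, 0 to 1 (VB P0), 0 to 2 (VB P4), 0 to 1 (dLGN P0) and 0 to 1 (dLGN P4). From P0 to P4 it gave 0 to 5 (control VB), 1 to 3 (embBE VB), 3 to 5 (control dLGN) and 1 to 2 (embBE dLGN). Between nuclei it gave 4 to 6, 5 to 7, 5 to 6 and 8 to 9, and for differences of the embBE effect 1 to 2 (age, VB), 0 to 2 (age, dLGN), 1 to 6 (nuclei, P0) and 0 to 2 (nuclei, P4). Other probe sets turned the sign for Wnt9a from P0 to P4 in the dLGN (−0.12 in control, −0.11 in embBE), for Rspo2 between nuclei at P4 (−0.039 in control, −0.18 in embBE), for Sfrp1 between embBE nuclei at P4 (0.029 and 0.004) and for Fzd1 (−0.20). With 2 to 4 arrays a group, and signals of 24 of the 52 genes in the lowest tertile, smaller changes would not be resolved.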
